A study of Mus musculus with 11 samples.

Results

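The translation initiation factors are the proteins that bring ribosome, initiator tRNA and messenger RNA together at a start codon. Their genes were described here across 4 groups of mouse CD8+ T cells measured on 11 arrays. They were taken by name: every gene with a symbol starting with Eif1, Eif2, Eif3, Eif4, Eif5 or Eif6, apart from the Eif2ak kinases, the Eif4ebp inhibitors and Eif4enif1. Of 18193 genes with a probe set of a single symbol, 40 were initiation factor genes, and 39 of these were among the 14795 genes tested. The gene not tested was Eif4a3, the helicase of the exon junction complex, whose single-symbol probe set lay below the filter level of 1.54 (log2) on all 11 arrays. Another probe set that lists Eif4a3 also lists Gm5576 and was not used, so absence of its RNA is not shown. Eif1, Eif2s1, Eif4g1, Eif3g and Eif3j1 were not analysed here. The scanning factor eIF1, the alpha subunit of eIF2, the main cap scaffold and these subunits of eIF3 are therefore missing from what follows.

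All cells came from Pmel-1 transgenic mice, in which CD8+ T cells bear a receptor specific for gp100, a protein of melanocytes. CD8+ T cells were enriched as naive (CD44-) or central memory (CD44+) cells and expanded on plate-bound CD3/CD28, later on allogeneic feeders loaded with the hgp100 peptide. Total culture lasted 2 weeks with IL2 at 10 cetus units, and the cells then received CD3/CD28 for 4 h or nothing before RNA was extracted. Arrays numbered 3 for memory-derived unstimulated cells, 3 for memory-derived stimulated, 2 for naive-derived unstimulated and 3 for naive-derived stimulated, and the replicate number names 1 of 3 independent experiments. Every group therefore carries the same transgenic receptor and the same weeks of activation, and the unstimulated groups are rested effector cells, not resting naive or memory cells. Origin rests on CD44 alone in the labels, the sources used here do not say whether animals were pooled, and feeder cells could remain in a culture.

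In initiation, eIF2 carries the initiator tRNA to the small ribosomal subunit, and eIF2B recharges eIF2 with GTP. The cap-binding protein eIF4E, with a scaffold and the helicase eIF4A, recruits the messenger RNA, eIF3 bridges it to the ribosome, and eIF1A and eIF5 help to choose the start codon. eIF5B then joins the large subunit, which eIF6 otherwise keeps apart, and T cells are known for raising their rate of translation when they leave rest.

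Levels are the deposited array values on the log2 scale, so a difference of 1 is a doubling. A probe set's level depends on its own probes, so levels are compared between groups for the same gene and not between genes. The 9 measured CD8 T cell markers lay above the filter level on every array, with summed levels of 74.5 to 74.8 in rested memory-derived cells, 71.5 to 71.7 in stimulated memory-derived cells, 75.4 to 75.7 in rested naive-derived cells and 73.7 to 75.0 in stimulated naive-derived cells. Cd4 and the B cell genes Ms4a1 and Cd79a lay below it on every array. In the same group order, the summed levels were 7.75 to 9.56, 8.20 to 9.11, 6.79 to 7.03 and 6.65 to 6.96 for 5 markers of CD4, regulatory, gamma-delta and NK cells, of which 1, 1, 2 and 1 were above the filter level on all arrays. For 7 B cell markers they were 11.2 to 13.4, 10.2 to 11.3, 14.5 to 14.5 and 12.7 to 15.1, with 3, 3, 4 and 3 above it. For 9 myeloid markers they were 23.7 to 26.3, 22.9 to 24.0, 21.3 to 21.4 and 18.4 to 21.1, with 6, 5, 6 and 4 above it, and for 2 erythroid markers they were 1.67 to 2.28, 1.70 to 2.00, 1.77 to 1.97 and 1.63 to 3.26, with 0 above it in any group. The 3′ minus 5′ difference of actin, a sign of RNA quality, ran from 0.87 to 1.17 (log2), 1.43 to 1.73, 1.54 to 1.59 and 1.93 to 2.60 in the same order. Its ranges were apart in each pair of groups compared below, and the part of these measures in the results was not tested.

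The first comparison asked how the initiation factors of memory-derived effectors responded to 4 h of CD3/CD28. In these cells 14 of 39 initiation factor genes rose and 3 fell at an adjusted p below 0.05, 43.6% of the members beside 31.6% of all 14795 genes tested. Split by direction, 14.3% of all genes rose and 17.3% fell. Rises were found among the subunits and exchange factor of eIF2 (Eif2s2, Eif2b1, Eif2b3 and Eif2b5), the large subunits of eIF3 (Eif3a, Eif3b and Eif3c), the cap-binding protein and its helicase (Eif4e and Eif4a1), the factors of subunit joining (Eif5b and Eif6) and those of start-site choice (Eif1a, Eif1ad and Eif5). The 3 that fell were Eif1b, Eif2d and the cap-binding relative Eif4e3. The median difference over the 39 genes was 0.21 (log2), beside 0.00 over all genes tested, and 16 members moved by more than 0.5 and 4 by more than 1. The 14 genes that rose lay higher on every stimulated array than on any unstimulated array. That kind of separation, in either direction, was found for 29 of 39 members and for 46.6% of all genes. In a bulk sample, more RNA per cell and a larger share of cells that hold it cannot be told apart.

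**Figure D1:**
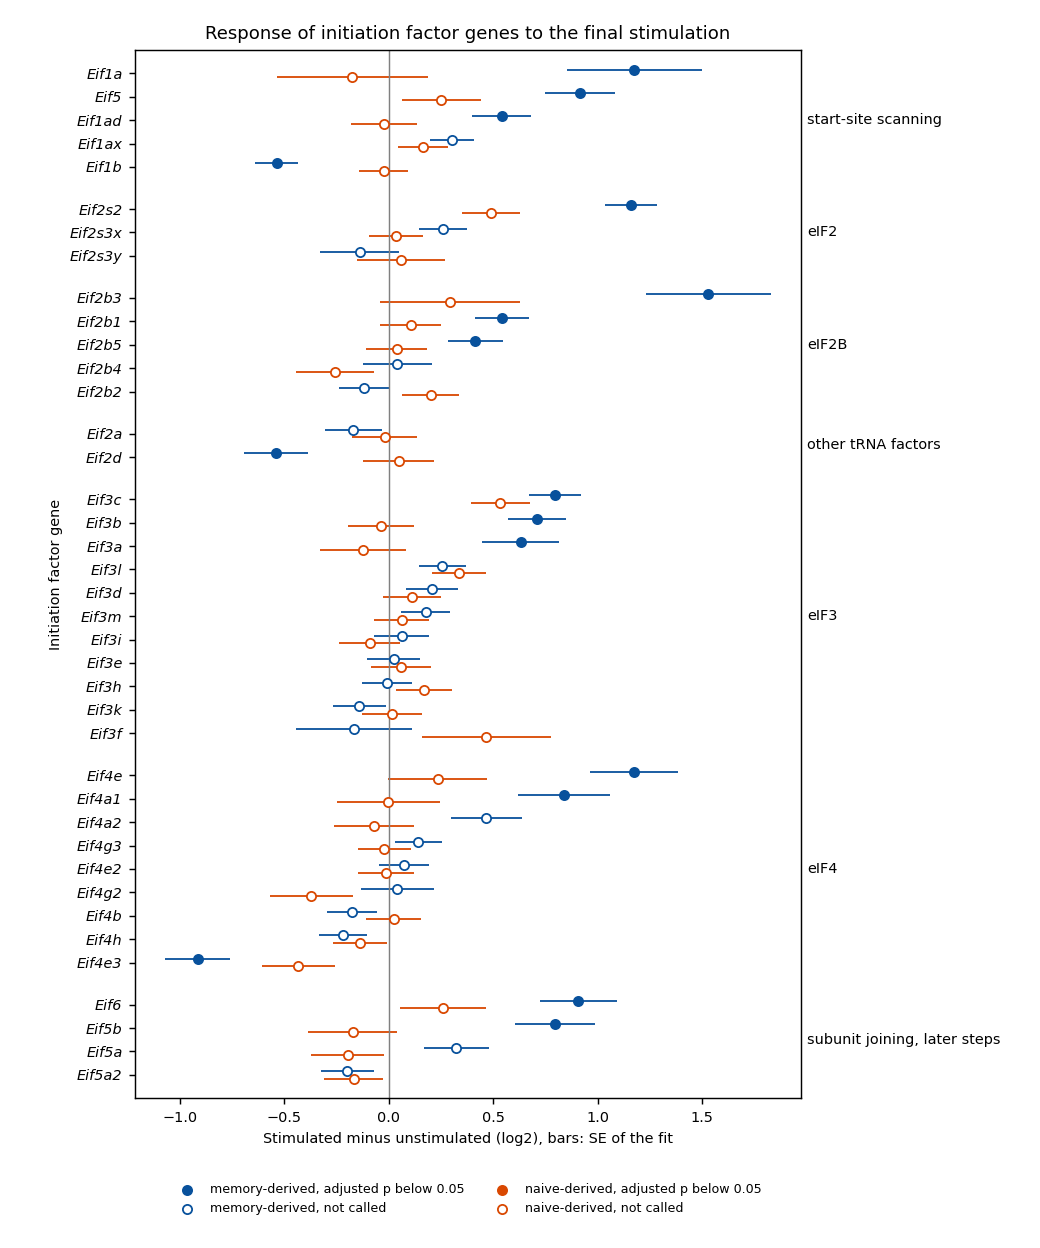
Difference between stimulated and unstimulated cells (log2, horizontal axis) for 39 initiation factor genes grouped by role, in memory-derived and naive-derived cells. Points are fitted differences, bars are standard errors of the fit and filled points passed an adjusted p of 0.05. In memory-derived cells 17 genes passed, from Eif4e3 at -0.91 to Eif2b3 at 1.53, and in naive-derived cells 0 passed.

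eIF2 is a trimer of alpha, beta and gamma subunits. Of its 3 measured genes, 1 rose in memory-derived cells. Eif2s2, the beta subunit, measured 9.10, 9.26 and 8.94 at rest and 10.14, 10.30 and 10.33 after stimulation. Each stimulated array was thus higher than each unstimulated array by a wide margin for this gene. The difference was 1.16 (SE 0.12, adjusted p = 0.000158), a 2.23-fold rise that was called in all 22 settings tried, with 0.98 to 1.24. The gamma subunit has an X-linked and a Y-linked gene. The X-linked Eif2s3x stood at 7.66, 7.87 and 7.69 before and 7.90, 8.06 and 8.04 after stimulation, a difference of 0.26 (SE 0.12, adjusted p = 0.12). Its groups did not overlap but stayed close together, and its probe set is of a type that can bind related transcripts. Of its other 2 probe sets, 1 passed when all probe sets were tested (0.38, adjusted p = 0.0355) and 1 did not (0.25, adjusted p = 0.217). The Y-linked Eif2s3y stood at 6.59, 6.75 and 6.77 and 6.36, 6.76 and 6.57, overlapping ranges with a difference of -0.14 (SE 0.19, adjusted p = 0.625). Its presence on all 11 arrays went with Kdm5d at 3.67 to 4.58 and Uty at 2.51 to 3.95, both Y-linked, and with Xist at 1.50 to 2.15, which lay around the filter level.

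eIF2B is a complex of alpha to epsilon subunits that exchanges GDP for GTP on eIF2, and 3 of its 5 genes rose. Eif2b3, the gamma subunit, had the largest difference of all 39 members in this comparison. It stood at 5.23, 5.64 and 4.14 on unstimulated and at 6.50, 6.64 and 6.46 on stimulated arrays. The unstimulated arrays were spread over more than 1 unit, with array 3 lowest, while the stimulated arrays lay close together. The difference was 1.53 (SE 0.30, adjusted p = 0.00318), and without unstimulated array 3 it was 1.10 (adjusted p = 0.00135). Eif2b1, the alpha subunit, rose by 0.54 (SE 0.13, adjusted p = 0.00902), but the call ended with scaling on the hybridization controls (adjusted p = 0.0845). Eif2b5, the catalytic epsilon subunit, differed by 0.41 (SE 0.13, adjusted p = 0.0346), and with the replicate block the adjusted p was 0.0508. The mean of its probe sets differed by only 0.048 (adjusted p = 0.84), and if unstimulated array 3 was left out its difference was 0.29 (adjusted p = 0.0961). The call also ended without unstimulated array 1 (0.0584) and without stimulated array 1 (0.0771), 2 (0.0725) or 3 (0.104), and it passed in 12 of 22 settings. The beta and delta subunits, Eif2b2 at -0.12 (SE 0.12, adjusted p = 0.509) and Eif2b4 at 0.041 (SE 0.17, adjusted p = 0.891), did not pass, with 95% intervals of -0.39 to 0.15 and -0.33 to 0.41.

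Of the other factors that can bring an initiator tRNA to the ribosome, Eif2d fell and Eif2a did not pass. Eif2d, which also acts in ribosome recycling, stood at 5.83, 5.54 and 6.02 before and 5.25, 5.21 and 5.30 after stimulation. Each stimulated array lay below each unstimulated one, and the difference was -0.54 (SE 0.15, adjusted p = 0.0196). The call ended when its probe sets were averaged (-0.15, adjusted p = 0.402) and without unstimulated array 3 (-0.43, adjusted p = 0.0676). It also ended without unstimulated array 1 (0.0542) and without stimulated array 1 (0.0541) or 2 (0.0643). Eif2a differed by -0.17 (SE 0.14, adjusted p = 0.394).

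eIF3 is the largest initiation factor, a scaffold of many subunits on the small ribosomal subunit, and 3 of its 11 measured genes rose while 0 fell. These were Eif3a, Eif3b and Eif3c, which encode its 3 largest subunits. Eif3c stood at 8.95, 8.72 and 8.99 on unstimulated and 9.67, 9.71 and 9.67 on stimulated arrays. Both groups were tight and far apart, with a difference of 0.79 (SE 0.12, adjusted p = 0.00102), and the other 3 probe sets of the gene gave 0.70, 0.75 and 0.73. Eif3a stood at 8.59, 9.37 and 8.82 before and 9.65, 9.46 and 9.56 after stimulation. Its highest unstimulated array nearly reached its lowest stimulated one. The difference was 0.63 (SE 0.19, adjusted p = 0.0242), and the call ended without memory-derived unstimulated array 1 (adjusted p = 0.0896) or 3 (0.0786) and without stimulated array 1 (0.0768) or 3 (0.0607). Eif3b stood at 6.53, 6.79 and 6.35 on unstimulated and 7.26, 7.25 and 7.28 on stimulated arrays, and rose by 0.71 (SE 0.14, adjusted p = 0.00344) without any overlap. The other 8 measured subunits, Eif3d, Eif3e, Eif3f, Eif3h, Eif3i, Eif3k, Eif3l and Eif3m, did not pass. Their differences ran from -0.17 for Eif3f to 0.26 for Eif3l. The 95% interval was -0.28 to 0.26 for Eif3h and -0.26 to 0.30 for Eif3e, so a change of the size of Eif3c lay outside both, while for Eif3f it was -0.78 to 0.44.

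The eIF4 factors bind the cap and unwind the leader of the messenger RNA, and of 9 tested genes 2 rose and 1 fell. Eif4e, the cap-binding protein, stood at 8.10, 8.22 and 7.26 on unstimulated and 9.06, 9.03 and 9.00 on stimulated arrays. Stimulated arrays agreed to within 0.1, whereas unstimulated array 3 lay well below the other two of its group. The rise was 1.17 (SE 0.21, adjusted p = 0.0021) or 2.25-fold, and 0.87 (adjusted p = 0.000753) without that array. Eif4a1, the main eIF4A helicase, stood at 9.73, 10.53 and 9.56 before and 10.75, 10.81 and 10.76 after stimulation. Array 2 of the unstimulated group lay near the stimulated arrays and the other two about 1 unit lower. The difference was 0.84 (SE 0.22, adjusted p = 0.0142), and the call ended without unstimulated array 1 (adjusted p = 0.0534) or 3 (0.0573). Its paralogue Eif4a2 stood at 7.71, 7.96 and 7.76 and then at 8.32, 8.18 and 8.33, apart on every array, with a difference of 0.47 (SE 0.17, adjusted p = 0.0592) that did not pass.

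Eif4e3, a relative of the cap-binding protein, went the other way. It stood at 4.81, 4.97 and 5.24 on unstimulated and 4.25, 4.04 and 4.00 on stimulated memory-derived arrays. Every stimulated array lay below every unstimulated one, with a difference of -0.91 (SE 0.16, adjusted p = 0.00156), and its second probe set fell too (-0.79, adjusted p = 0.0254 over all probe sets). The cap-binding repressor Eif4e2 at 0.07, the scaffold relatives Eif4g2 at 0.04 and Eif4g3 at 0.14, and the helicase partners Eif4b at -0.18 and Eif4h at -0.22 did not pass, with adjusted p from 0.183 to 0.898.

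Of the 4 genes of subunit joining and later steps, 2 rose. Eif5b, the GTPase that joins the subunits, stood at 5.36, 5.77 and 5.22 before and 6.01, 6.36 and 6.36 after stimulation. The groups did not overlap, and the rise was 0.79 (SE 0.19, adjusted p = 0.00917). Eif6, which holds the large subunit back and takes part in its assembly, stood at 7.62, 7.90 and 7.09 and then at 8.42, 8.54 and 8.36. It was higher on every stimulated array, by 0.91 (SE 0.18, adjusted p = 0.00388), and its second probe set rose by 0.89 (adjusted p = 0.00246 over all probe sets). Eif5a, now known mainly as an elongation factor that carries the modified residue hypusine, stood at 11.23, 11.41 and 11.26 and 11.46, 11.61 and 11.80. The difference of 0.32 (SE 0.16, adjusted p = 0.146) did not pass, and the paralogue Eif5a2 at -0.20 (SE 0.13, adjusted p = 0.269) did not pass either.

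Among the 5 genes of start-site scanning and choice, 3 rose and 1 fell. Eif1a, a homologue of the X-linked Eif1ax, stood at 7.28, 7.50 and 6.00 before and 8.08, 8.12 and 8.09 after stimulation. Its 3 stimulated arrays were almost equal, and unstimulated array 3 lay more than 1 unit under the other two. The difference of 1.17 (SE 0.32, adjusted p = 0.0176) dropped to 0.71 (adjusted p = 0.0182) without that array. Eif5, which makes eIF2 hydrolyse its GTP at the start codon, stood at 8.28, 8.34 and 7.86 and then at 8.93, 9.11 and 9.18, a clear separation of 0.92 (SE 0.17, adjusted p = 0.00237). Eif1ad, a protein with an eIF1A-like domain, rose by 0.54 (SE 0.14, adjusted p = 0.0142), and Eif1ax at 0.30 (SE 0.11, adjusted p = 0.0511) did not pass. Eif1b, a close homologue of the scanning factor eIF1, stood at 6.66, 6.57 and 6.70 on unstimulated and 6.14, 6.06 and 6.12 on stimulated arrays. Both groups were tight, and the difference of -0.54 (SE 0.10, adjusted p = 0.00319) was called in all 22 settings.

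**Figure D2:**
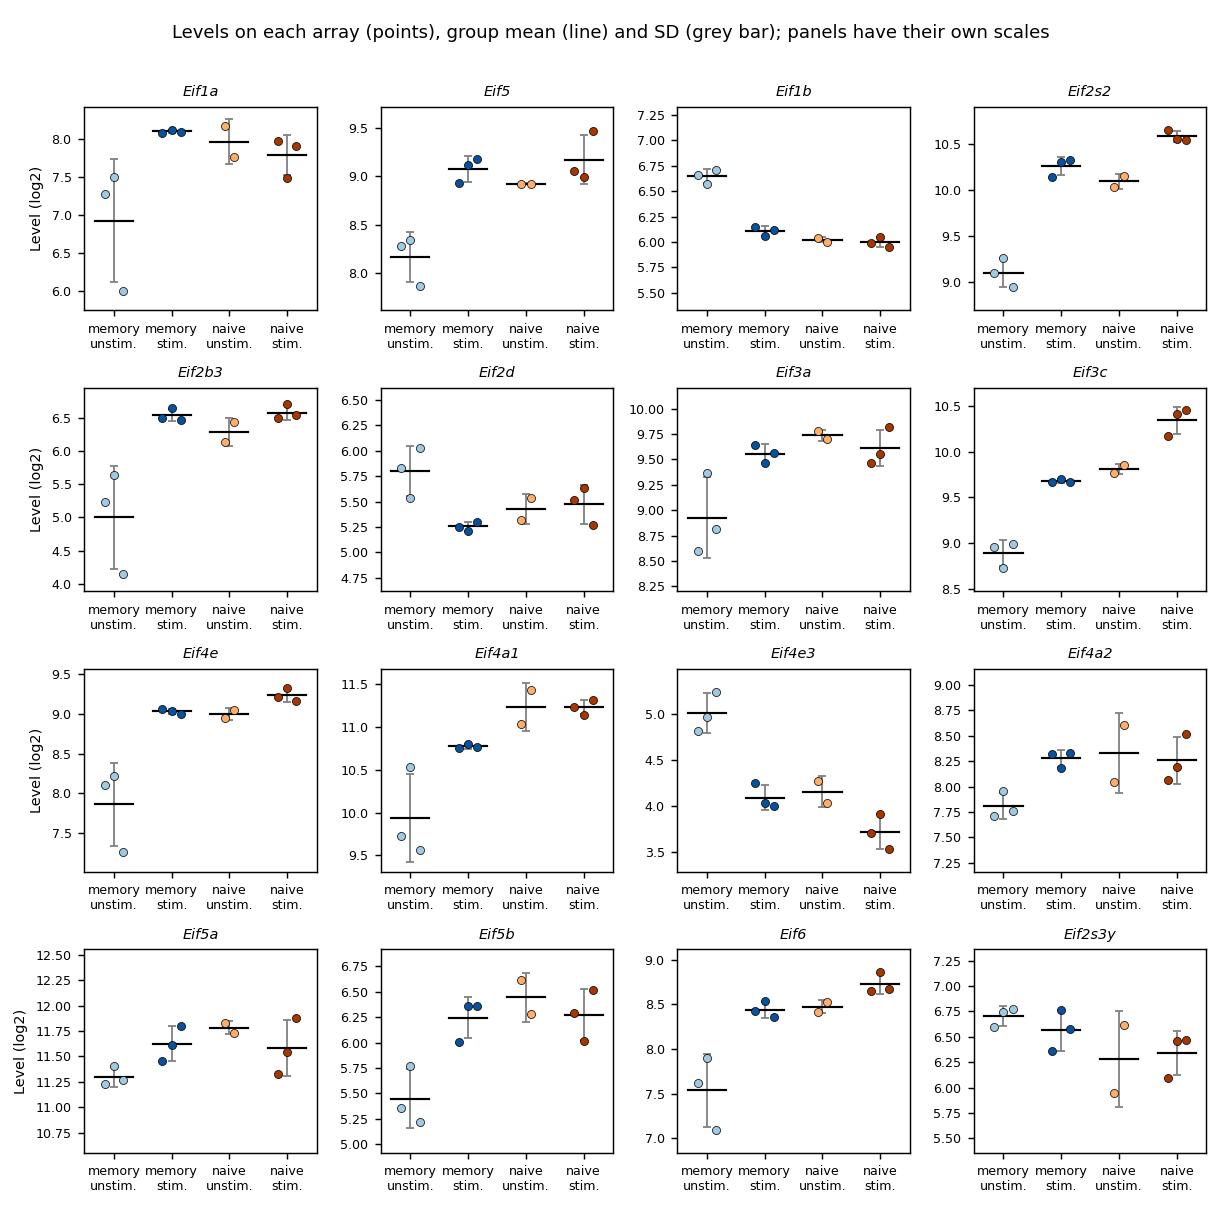
Level (log2, vertical axis) of selected initiation factor genes on each of the 11 arrays, in the groups memory-derived unstimulated and stimulated and naive-derived unstimulated and stimulated. Points are arrays, lines are group means and grey bars are standard deviations. For Eif4e, memory-derived unstimulated arrays lie at 8.10, 8.22 and 7.26 and all other arrays between 8.95 and 9.32.

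Unstimulated memory-derived array 3 held the lowest level of its group for 12 of the 14 genes that rose, and array 2 held the highest for 12. These 14 were picked with the same arrays, and the order of arrays was not counted over all genes. The median over all 39 members, counted from the mean of that group, was 0.01 on array 1, 0.05 on array 2 and -0.09 on array 3. Over all genes it was 0.02, -0.03 and 0.01. Without array 3, 11 of the 14 genes still rose and 2 of the 3 still fell, in a fit where 24.2% of all genes passed. Over the fits that left out 1 array and kept at least 2 in each group, 13 of the 17 calls passed in every fit. In these fits 23.2% to 32.0% of all genes passed. Leaving out a naive-derived array does not change these differences, only the estimate of their spread. With experiments 1 and 2 only, the calls of Eif1a, Eif1ad, Eif2b1, Eif2b5, Eif2d, Eif3a, Eif4a1 and Eif5b ended, with adjusted p from 0.0572 for Eif1a to 0.237 for Eif2b5. In that fit 18.6% of all genes passed, beside 31.6% in the main fit. Scaling on the hybridization controls, with which 22.3% of all genes passed, ended the calls of Eif1ad (0.0618), Eif2b1, Eif2b5 (0.159) and Eif2d (0.0666). Other probe sets were measured for 31 members. Among the 31 further probe sets of the called genes, 29 had the sign of the main one and 21 passed with that sign, and 0 of all 64 further probe sets passed with the opposite sign.

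Promoters were read for the genes that rose, fell or did not pass. RefSeq windows of 300 bases (250 before and 50 after a start site, GRCm38.p6) were matched by symbol for 31 of the 39 members. The letters CACGTG, an E-box that factors such as Myc bind and a palindrome read the same on both strands, occurred in 9 of 31 members (29.0%). They occurred in 10.8% of 11870 tested genes with a window and in 7.15% of 32851 single windows. By response, 3 of 11 genes that rose and 6 of 20 others held them, so the share was similar in both. The 250 bases before the start site are printed for a gene that rose, a gene that fell and a gene that did not pass, with CACGTG in capitals. Eif4a1 has it 189 bases before the start (chr11:69672424-69672673, minus strand), Eif1b 24 bases before (chr9:120492356-120492605, plus strand) and Eif3k 44 bases before (chr7:28981889-28982138, minus strand).
Eif4a1: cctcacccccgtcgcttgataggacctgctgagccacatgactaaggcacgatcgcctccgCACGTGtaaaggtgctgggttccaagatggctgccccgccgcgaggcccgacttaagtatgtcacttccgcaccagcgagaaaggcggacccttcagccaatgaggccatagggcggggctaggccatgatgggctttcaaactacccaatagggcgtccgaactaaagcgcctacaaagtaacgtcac
Eif1b: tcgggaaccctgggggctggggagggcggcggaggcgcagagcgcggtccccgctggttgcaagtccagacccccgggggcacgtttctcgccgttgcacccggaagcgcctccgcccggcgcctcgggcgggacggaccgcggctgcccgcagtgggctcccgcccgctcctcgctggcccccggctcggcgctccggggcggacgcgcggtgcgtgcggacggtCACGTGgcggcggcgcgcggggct
Eif3k: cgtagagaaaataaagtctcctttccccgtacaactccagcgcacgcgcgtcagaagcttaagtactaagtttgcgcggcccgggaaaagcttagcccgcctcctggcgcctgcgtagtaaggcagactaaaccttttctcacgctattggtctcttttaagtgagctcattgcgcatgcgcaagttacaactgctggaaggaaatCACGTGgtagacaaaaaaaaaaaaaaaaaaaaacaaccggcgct
In 1 window of Eif4e the letters occurred 228 and 64 bases before the start site. Other motifs searched on both strands were TGCGCA, in 8 of 31 members (4 of 11 that rose) and 14.1% of tested genes, and CCGGAAGT, in 7 of 31 members (0 of 11 that rose) and 7.67% of tested genes. TGACGTCA, in 3.22% of tested genes, and TTGCATCA, in 0.792%, were in 0 of 31 member windows. No motif of the 5 contains another. A match is a run of letters and not a measured binding site.

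The next comparison asked how the same genes responded in naive-derived effectors. There 0 of 39 initiation factor genes passed in limma, beside 0.0135% of all genes (2 of 14795). At an unadjusted p below 0.05 there were 4 members (10.3%) and 1252 of all genes (8.46%). In limma, each of the other settings tried also gave 0 member calls in either direction. The median member difference was 0.02, beside 0.01 over all genes. Groups that did not overlap were found for 12 of 39 members, beside 26.4% of all genes. For Eif2s2 the 2 unstimulated arrays gave 10.03 and 10.15 and the 3 stimulated arrays 10.65, 10.56 and 10.54. These groups did not overlap, and the difference was 0.49 (SE 0.14, adjusted p = 0.356) with a 95% interval of 0.19 to 0.79. Eif3c stood at 9.77 and 9.86 and 10.17, 10.41 and 10.46, again apart, with a difference of 0.53 (SE 0.14, adjusted p = 0.306).

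For Eif4e the naive-derived levels were 8.95 and 9.05 unstimulated and 9.22, 9.32 and 9.16 stimulated. The stimulated arrays were slightly higher, with a difference of 0.23 and a 95% interval of -0.29 to 0.75. Eif5b ran the other way in its mean, from 6.62 and 6.28 to 6.29, 6.02 and 6.52, a difference of -0.17 with overlapping arrays and an interval of -0.64 to 0.30. Eif2b3 differed by 0.29 (-0.44 to 1.03), Eif6 by 0.26 (-0.19 to 0.71) and Eif4e3 by -0.43 (-0.82 to -0.051). A missed threshold does not show that the genes did not respond. Of the 14 genes that rose in memory-derived cells, 8 had a naive-derived difference above 0 and 6 did not. Over all 14795 genes tested, that difference was above 0 for 7629 and below 0 for 7166 (48.4%).

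The comparison of origin before stimulation asked how rested naive-derived effectors differed from rested memory-derived ones. Naive-derived cells had higher levels of 11 initiation factor genes and lower levels of 2, 33.3% of the 39 members beside 25.8% of all genes (10.9% higher and 14.9% lower). The 11 were Eif2s2, Eif2b1, Eif2b3, Eif3a, Eif3b, Eif3c, Eif4a1, Eif4e, Eif5b, Eif6 and Eif5, and the 2 were Eif1b and Eif4e3. The median member difference was 0.14, beside -0.01 over all genes, and 26 of 39 members had groups that did not overlap, beside 53.4% of all genes. This comparison uses the same 3 memory-derived unstimulated arrays as the stimulation comparison above, so the lists are not independent, and their values are given side by side. In the same groups the summed levels of the CD8, CD4 and NK, B cell and myeloid marker lists did not overlap, nor did the actin difference, and their part was not tested.

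By role, the naive-derived unstimulated level was higher for 1 of 3 eIF2 genes, 2 of 5 eIF2B genes, 3 of 11 eIF3 genes, 2 of 9 eIF4 genes, 2 of 4 genes of subunit joining and later steps and 1 of 5 scanning genes. Eif4a1 stood at 11.04 and 11.43 on naive-derived unstimulated arrays against 9.73, 10.53 and 9.56 on memory-derived ones. Both naive-derived arrays lay above all memory-derived arrays, by 1.30 (SE 0.25, adjusted p = 0.00377), beside a stimulation difference of 0.84 in memory-derived cells. Eif4e stood at 8.95 and 9.05, above each memory-derived unstimulated array, by 1.14 (SE 0.24, adjusted p = 0.00581), beside 1.17 on stimulation. Eif2s2, at 10.03 and 10.15, differed by 0.99 (SE 0.14, adjusted p = 0.000781), beside 1.16. Rested naive-derived cells thus already held these 3 genes above the level of rested memory-derived cells.

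Eif2b3 stood at 6.14 and 6.43 and differed by 1.28 (SE 0.33, adjusted p = 0.017). The difference was 0.85 without memory-derived unstimulated array 3, 1.43 without naive-derived array 1 and 1.13 without naive-derived array 2. Eif5b stood at 6.62 and 6.28 and differed by 1.00 (SE 0.21, adjusted p = 0.00673), and by 0.83 without naive-derived array 1. Eif6 stood at 8.42 and 8.52 and differed by 0.94 (SE 0.21, adjusted p = 0.00753), and by 0.88 without naive-derived array 2. All 3 were higher on each naive-derived array than on any memory-derived one. Eif3c at 9.77 and 9.86 differed by 0.93 (SE 0.14, adjusted p = 0.00123). It kept its call in every setting with at least 2 arrays in each group. Eif3a at 9.78 and 9.70 differed by 0.81 (SE 0.21, adjusted p = 0.0158), and Eif5 at 8.92 and 8.92 by 0.76 (SE 0.19, adjusted p = 0.0131). Without naive-derived unstimulated array 1 and 2 in turn, the difference was 0.77 and 0.85 for Eif3a and 0.76 and 0.77 for Eif5.

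Eif2b1 differed by 0.65 (SE 0.14, adjusted p = 0.00774) and Eif3b by 0.75 (SE 0.16, adjusted p = 0.00593). The call of Eif2b1 ended with scaling on the hybridization controls (0.0952), with which 18.2% of all genes passed, beside 25.8% in the main fit. Its difference was 0.50 without naive-derived array 2, and that of Eif3b was 0.63 without naive-derived array 1. A fit to the compared groups only ended the calls of Eif2b1 (0.0531), Eif2b3 (0.0731) and Eif3a (0.0633). In that fit 10 of 39 members passed, beside 16.1% of all genes.

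Lower in naive-derived unstimulated cells were Eif1b, at 6.04 and 6.00 with a difference of -0.62 (SE 0.12, adjusted p = 0.00358), and Eif4e3, at 4.28 and 4.04 with a difference of -0.85 (SE 0.17, adjusted p = 0.00538). Both lay below every memory-derived unstimulated array, and the difference of Eif4e3 was -0.73 without naive-derived array 2. Eif1a at 8.17 and 7.76 differed by 1.04 (SE 0.36, adjusted p = 0.0559), Eif4a2 at 8.05 and 8.61 by 0.52 (SE 0.19, adjusted p = 0.0685) and Eif5a at 11.83 and 11.74 by 0.48 (SE 0.17, adjusted p = 0.0655). These 3 did not pass. Eif2s3x at 8.10 and 8.03 and Eif2s3y at 5.95 and 6.62 did not pass either, with 0.32 (SE 0.13, adjusted p = 0.0951) and -0.42 (SE 0.21, adjusted p = 0.173). In the fits that left out 1 array and kept at least 2 in each group, all 13 calls passed, and 20.9% to 28.1% of all genes did. Without either naive-derived unstimulated array that group holds 1 array, which is assumed to vary like the other groups, so calls cannot be read there. How far the 13 calls rest on 1 of these 2 arrays is thus not known.

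For the 14 genes that rose on stimulation in memory-derived cells, the naive-derived unstimulated mean minus the memory-derived stimulated mean ran from -0.28 for Eif1ad to 0.46 for Eif4a1, with a median of -0.0028. For the 3 that fell it ran from -0.086 for Eif1b to 0.17 for Eif2d. These are described and not tested, because the genes were picked on one of the groups. On the array medians over all 39 members, counted from the memory-derived unstimulated mean, the memory-derived stimulated arrays lay at 0.16 to 0.24, the naive-derived unstimulated arrays at 0.16 to 0.17 and the naive-derived stimulated arrays at 0.14 to 0.25. The 3 memory-derived unstimulated arrays, at -0.09 to 0.05, were below all 8 others.

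After stimulation the origins differed in 1 of 39 initiation factor genes, beside 3.7% of all genes (1.69% higher and 2.01% lower in naive-derived cells). Groups that did not overlap were found for 17 of 39 members, beside 25.7% of all genes. The gene was Eif3c, at 10.17, 10.41 and 10.46 on naive-derived and 9.67, 9.71 and 9.67 on memory-derived stimulated arrays. Its groups did not overlap, and the difference was 0.67 (SE 0.12, adjusted p = 0.0136). The call ended with scaling on the hybridization controls, which moved the median of all genes from -0.01 to -0.12 (adjusted p = 0.165), with the mean of its probe sets (0.40, 0.0666), with probe sets less open to cross-hybridization (0.26, 0.481) and with experiments 1 and 2 only (0.125). It also ended without memory-derived stimulated array 1 (0.0592), 2 (0.0501) or 3 (0.0552) and without naive-derived stimulated array 3 (0.0597).

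Other members did not pass. Eif4e stood at 9.22, 9.32 and 9.16 on naive-derived and 9.06, 9.03 and 9.00 on memory-derived stimulated arrays, a difference of 0.20 (SE 0.21, adjusted p = 0.708) with an interval of -0.27 to 0.66. Eif2s2 stood at 10.65, 10.56 and 10.54 against 10.14, 10.30 and 10.33, apart by 0.32 (SE 0.12, adjusted p = 0.21). Eif2b3, at 6.49, 6.70 and 6.54 against 6.50, 6.64 and 6.46, differed by 0.042 (-0.61 to 0.70). Eif4a1 at 11.24, 11.14 and 11.31 was higher than 10.75, 10.81 and 10.76 on each array, by 0.46 (SE 0.22, adjusted p = 0.337), and did not pass. At an unadjusted p below 0.05 there were 5 members and 2418 of all genes (16.3%).

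**Figure D3:**
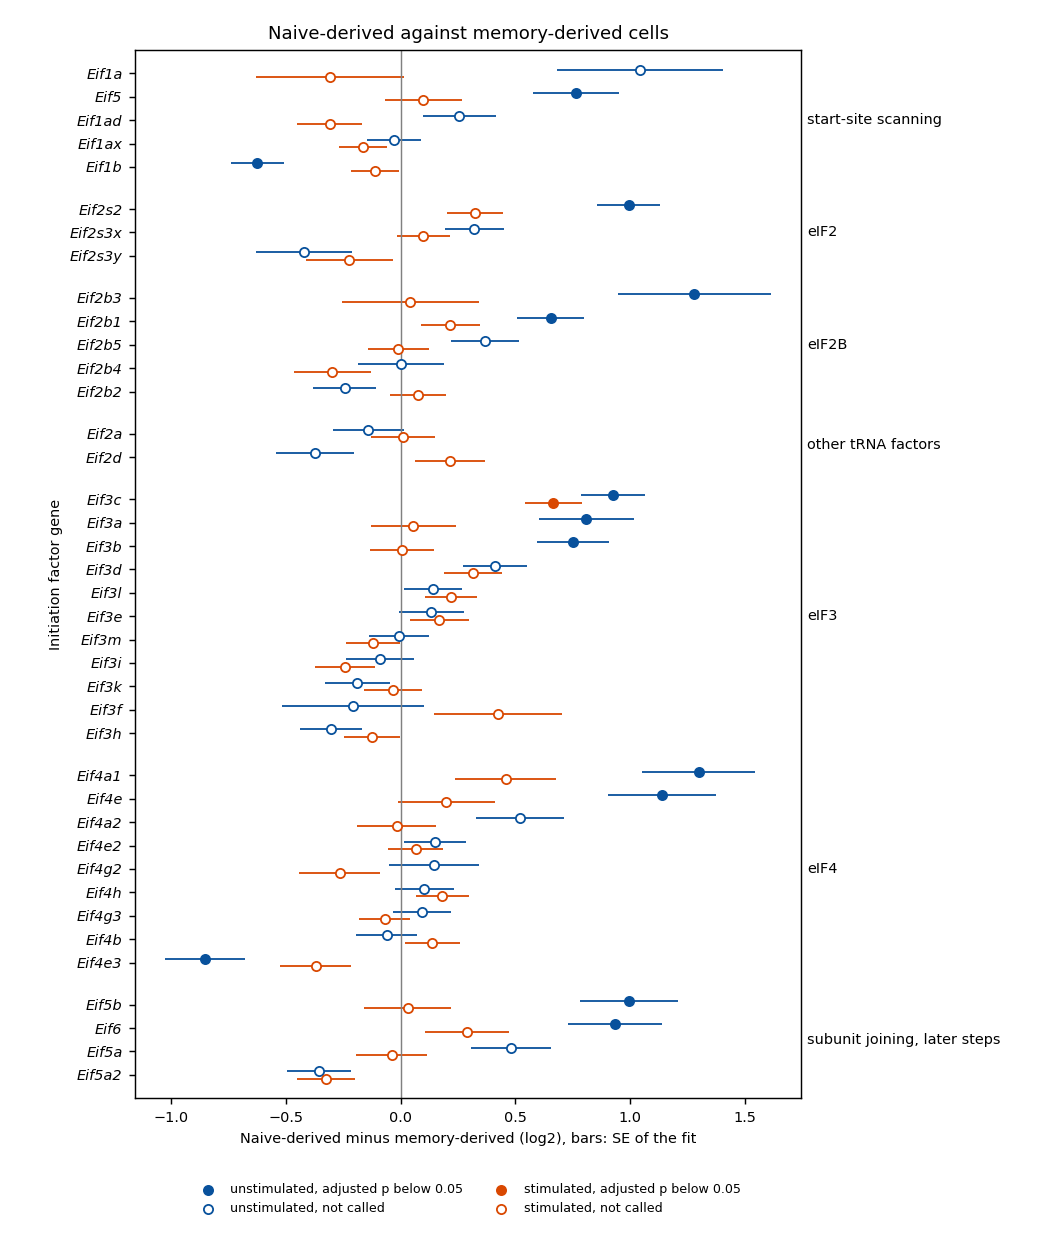
Naive-derived minus memory-derived difference (log2, horizontal axis) for 39 initiation factor genes grouped by role, in unstimulated and stimulated cells. Points are fitted differences, bars are standard errors and filled points passed an adjusted p of 0.05, 13 genes in unstimulated cells and Eif3c alone in stimulated cells.

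Whether the response to stimulation itself differed between origins was tested by the interaction term, the naive-derived minus the memory-derived response. It passed for 0 of 39 members in limma, beside 2.71% of all genes (1.62% higher and 1.09% lower). At an unadjusted p below 0.05 there were 15 members (38.5%), beside 23.3% of all genes, and 25 of the 39 differences (64.1%) were negative, a lower response in naive-derived than in memory-derived cells, beside 48.3% of all genes. Eif2s2 had an interaction of -0.67 (SE 0.18, adjusted p = 0.0713), Eif3b of -0.75 (SE 0.21, adjusted p = 0.0761), Eif5b of -0.97 (SE 0.29, adjusted p = 0.0855) and Eif1b of 0.51 (SE 0.16, adjusted p = 0.0921). For Eif4e it was -0.94 (SE 0.32, adjusted p = 0.114), and for Eif2b3 -1.24 (SE 0.45, adjusted p = 0.133). So a pass in one origin and none in the other was, for single initiation factors, not shown to be a difference between origins. With array weights 7 members passed (17.9%, 1 higher and 6 lower), beside 10.0% of all genes. A trended robust variance gave 4 (10.3%, 1 and 3) beside 7.57%, and a stricter filter gave 4 (10.3%, 1 and 3) beside 11.6% of the 9919 genes it left. Without memory-derived unstimulated array 2 there were 8 (20.5%), all lower, beside 10.2% of all genes.

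Initiation is controlled by a second layer of genes, counted from a list of regulators of which 36 of 39 were tested. In memory-derived cells 13 rose and 6 fell on stimulation (52.8%, beside 31.6% of all genes). In the origin comparison before stimulation 13 were higher and 5 lower in naive-derived cells, 18 of the 36 tested, beside 25.8% of all genes. In naive-derived cells 0 of 36 passed on stimulation, beside 0.0135% of all genes. At an unadjusted p below 0.05 there were 3 (8.33%), beside 8.46% of all genes. Between stimulated origins 0 passed, beside 3.7% of all genes, and 4 had an unadjusted p below 0.05 (11.1%, beside 16.3%). The interaction passed for 5 (13.9%, beside 2.71% of all genes), with Pdcd4, Mknk2 and Paip2 higher and Eif4ebp1 and Ppp1r15a lower. With the replicate block the calls of Pdcd4 (adjusted p = 0.101), Mknk2 (0.0611), Paip2 (0.0863) and Ppp1r15a (0.081) ended. In that fit the interaction passed for 0.176% of all genes. The list was written with results of these data known, and its count describes it only.

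Several of these act on eIF4E and its partners. Eif4ebp1, the inhibitor that holds eIF4E when it is not phosphorylated, stood at 5.58, 5.51 and 5.65 on memory-derived unstimulated and 7.64, 7.83 and 7.77 on stimulated arrays. The groups were tight and apart, with a difference of 2.17 (SE 0.13, adjusted p = 1.5e-05). Naive-derived arrays stood at 7.13 and 6.85 and then at 7.94, 7.68 and 7.86, apart by 0.84 (SE 0.14, adjusted p = 0.142). Its relative Eif4ebp2 fell in memory-derived cells, from 6.24, 6.45 and 6.82 to 5.59, 5.77 and 5.80, a difference of -0.78 (SE 0.16, adjusted p = 0.00358), but the mean of its probe sets did not pass (-0.27, 0.206). Pdcd4, an inhibitor of eIF4A, fell from 6.18, 5.57 and 7.03 to 3.66, 3.75 and 3.68, a difference of -2.57 (SE 0.29, adjusted p = 0.000199). Mknk2, a kinase that phosphorylates eIF4E, fell from 8.16, 8.21 and 8.86 to 6.08, 6.09 and 6.28, a difference of -2.26 (SE 0.19, adjusted p = 5.11e-05). Paip2, which takes poly(A)-binding protein away from initiation, fell from 6.84, 6.11 and 6.97 to 4.99, 5.26 and 5.33, a difference of -1.45 (SE 0.20, adjusted p = 0.000583). For all 3 the memory-derived unstimulated arrays were above every other array.

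On the eIF2 side, Ppp1r15a, the subunit that directs a phosphatase to eIF2 alpha, rose from 3.78, 3.88 and 3.64 to 5.25, 5.48 and 5.43, by 1.62 (SE 0.15, adjusted p = 8.13e-05). Eif2ak3, the eIF2 alpha kinase of the endoplasmic reticulum, fell from 5.28, 5.46 and 6.36 to 4.12, 4.33 and 4.35, a difference of -1.44 (SE 0.25, adjusted p = 0.0018). Eif2ak4, the kinase that senses uncharged tRNA, went from 3.17, 3.40 and 3.03 to 3.52, 3.69 and 3.95. Its call on 0.52 (SE 0.15, adjusted p = 0.0235) ended without unstimulated array 1 (0.0611) or 3 (0.0793), without stimulated array 2 (0.0577) or 3 (0.0935) and with the mean of its probe sets (0.20, 0.45). The enzymes that make hypusine on Eif5a both rose, Dhps by 0.71 (SE 0.15, adjusted p = 0.00507) and Dohh by 0.76 (SE 0.19, adjusted p = 0.0112), and the call for Dohh ended without stimulated array 2 (0.0504) and with the mean of its probe sets (0.40, 0.0763).

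**Figure D4:**
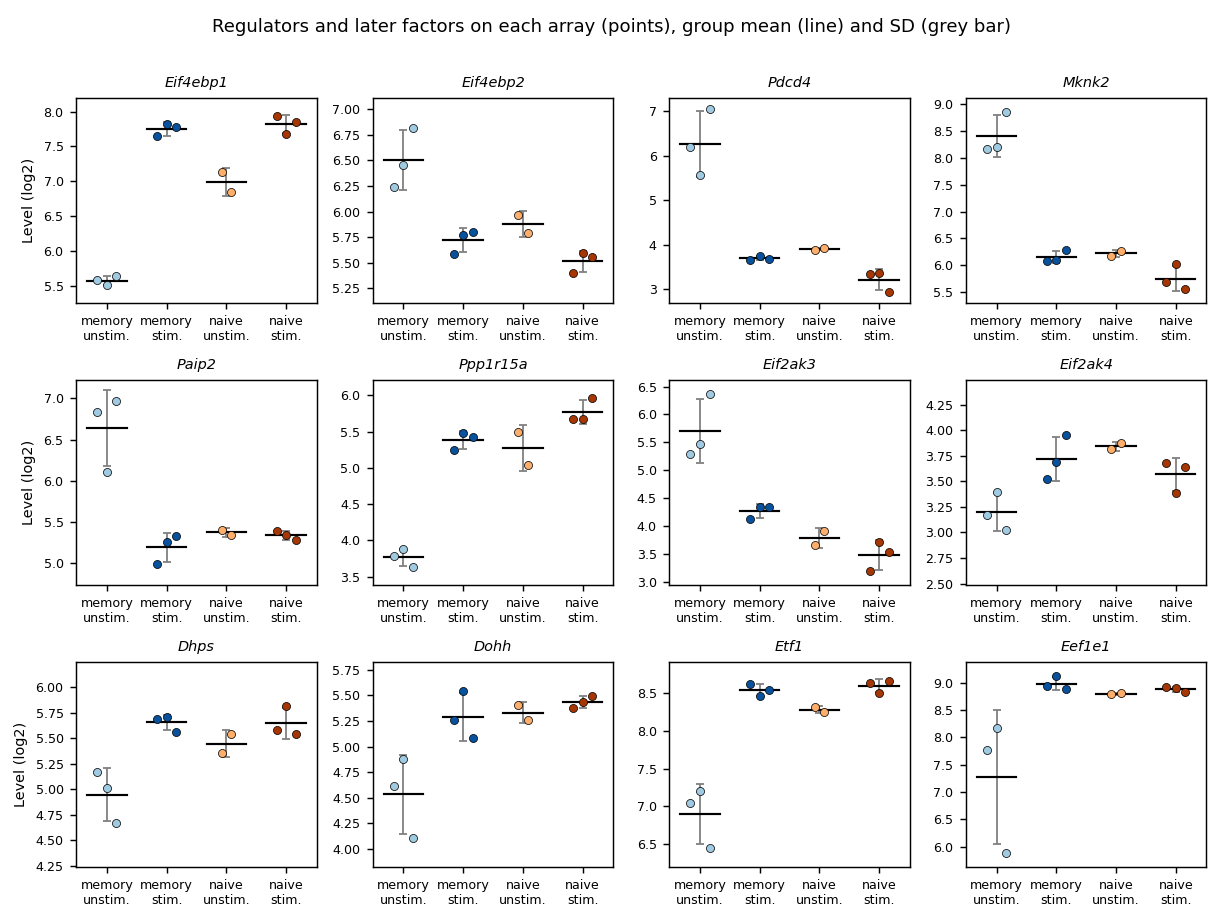
Level (log2, vertical axis) of 12 regulators of initiation and later translation factors on each array, in the groups memory-derived unstimulated and stimulated and naive-derived unstimulated and stimulated. Points are arrays, lines are group means and grey bars are standard deviations, and Eif4ebp1 goes from 5.58, 5.51 and 5.65 to 7.64, 7.83 and 7.77 in memory-derived cells.

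Of the elongation and termination factors, 17 of 18 were tested, and 6 rose and 2 fell in memory-derived cells (47.1%, beside 31.6% of all genes). Before stimulation 4 were higher and 1 was lower in naive-derived cells (29.4%, beside 25.8%). On naive-derived stimulation 0 passed, and 1 had an unadjusted p below 0.05 (5.88%, beside 8.46% of all genes). Between stimulated origins 0 passed, beside 3.7% of all genes, and 2 had an unadjusted p below 0.05 (11.8%, beside 16.3%). The interaction was lower for Etf1 and Gfm1 (11.8%, beside 2.71%), calls that ended with the replicate block (0.0772 and 0.079). With that block the interaction passed for 0.176% of all genes. Etf1, the factor that reads stop codons, stood at 7.04, 7.21 and 6.45 before and 8.62, 8.46 and 8.53 after stimulation. It was higher on every stimulated array, by 1.64 (SE 0.18, adjusted p = 0.000168). Eef1e1, a part of the tRNA synthetase complex, stood at 7.77, 8.17 and 5.88 and then at 8.93, 9.12 and 8.89, with unstimulated array 3 about 2 units under the other two. Its difference was 1.70 (SE 0.44, adjusted p = 0.0133), and 1.01 (adjusted p = 0.00118) without that array. The core elongation factors Eef1a1 at 0.10 and Eef2 at -0.19 did not pass, with adjusted p of 0.77 and 0.366.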

How the data were processed

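RNA of 11 samples was measured on Affymetrix arrays. The deposited values are log10 values that the authors had quantile normalized, since all arrays held the same sorted values. The base of the logarithm was inferred here from the hybridization controls, whose deposited means were 1.38, 1.87, 2.58 and 3.65 at 1.5, 5, 25 and 100 pM (steps of 0.944, 1.02 and 1.77 per unit of log10 concentration). Every fold printed rests on that base. Affymetrix Expression Console was used, per the submitters' processing notes, and the summarization method is not given in the sources used here. Quantile normalization hides a change common to all genes. Precision is limited by the number of arrays.

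Deposited values were multiplied by 3.32 to give log2 values. Of 45101 probe sets, 34945 had 1 symbol in GEO's platform annotation and 932 had several, which were not used (5 of them list an initiation factor). For each gene the probe set of highest mean level was used, and genes above the 40th percentile (1.54 log2) on at least 2 arrays were tested. The log2 values computed from the deposited ones were compared with lmFit and eBayes of limma 3.58.1, run under R 4.3.3 (4 group means, 11 arrays, 7 residual and 3.86 prior degrees of freedom). Two-sided P values were Benjamini-Hochberg adjusted over all 14795 genes within each of 5 comparisons, with 0.05 as the threshold. SE is the standard error of a fitted difference. The code was tested on simulated data. Figures used matplotlib 3.10.9 (numpy 2.4.6, pandas 2.3.3) in Python 3.11.15.

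Replicate numbers name shared experiments, per the labels. Deviations from group means correlated at -0.0716 to 0.112 within an experiment (median 0.0341, 15 pairs) and -0.131 to 0.112 between experiments (median -0.00361, 30 pairs), and a replicate block was fitted as an alternative. The members and lists were chosen with earlier results of these data known. The rule for values per array took preset members of each role, the largest increase and decrease of each role among called members, and the regulators and later factors with the largest changes or a direct role on a described member; Eif3b, Eef1a1, Eef2 and Gfm1 were added after their values were seen. Motif searches read RefSeq promoters of GRCm38.p6.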

Additional observations from a re-analysis of the deposited data

Results flagged for a closer look

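For 7 genes that regulate or follow initiation, the response to stimulation differed between origins in the interaction term of limma. For 4 the rise was smaller in naive-derived cells, or the difference there was near 0, with Eif4ebp1 at -1.33 (SE 0.19, adjusted p = 0.017), Etf1 at -1.32 (SE 0.26, adjusted p = 0.0364), Ppp1r15a at -1.12 (SE 0.23, adjusted p = 0.0365) and Gfm1, a mitochondrial elongation factor, at -0.82 (SE 0.16, adjusted p = 0.0365). For the other 3 the fall was smaller, with Pdcd4 at 1.88 (SE 0.43, adjusted p = 0.0471), Mknk2 at 1.78 (SE 0.29, adjusted p = 0.0226) and Paip2 at 1.41 (SE 0.30, adjusted p = 0.0417). With the replicate block, Eif4ebp1 still passed (adjusted p = 0.0474), while Etf1 (0.0772), Ppp1r15a (0.081), Pdcd4 (0.101), Mknk2 (0.0611), Paip2 (0.0863) and Gfm1 (0.079) did not. With that block the interaction passed for 0.176% of all genes, beside 2.71% in the main fit. Without naive-derived unstimulated array 1 that group holds 1 array, so calls cannot be read there. In that fit the interaction was -1.19 for Eif4ebp1, -1.29 for Etf1, -0.90 for Ppp1r15a and -0.72 for Gfm1. It was 1.87 for Pdcd4, 1.74 for Mknk2 and 1.45 for Paip2. Eif4ebp1 missed with experiments 1 and 2 only (0.0597), with probe sets not ending in x or s (-0.99, 0.0572) and without memory-derived stimulated array 2 (0.0554). In that order, the interaction passed for 0.331%, 2.52% and 0.128% of all genes. Gfm1 was -0.36 (0.416) with probe sets not ending in x or s and -0.59 (0.0615) with the mean of its probe sets. Control scaling, with which the interaction passed for 1.05% of all genes, ended the calls of Etf1 (0.055), Ppp1r15a (0.0595), Pdcd4 (0.0553), Paip2 (0.0628) and Gfm1 (0.119). Among fits that left out 1 array and kept at least 2 in each group, Eif4ebp1 lost its call only without memory-derived stimulated array 2. Of the same fits, 4 kept the call of Mknk2, 3 those of Ppp1r15a and Gfm1, and 2 those of Etf1, Pdcd4 and Paip2. Across those of the fits that kept at least 2 arrays in each group, the interaction passed for 0.128% to 10.2% of all genes. For each gene the memory-derived unstimulated arrays lay apart from all 8 others, and the actin 3′ minus 5′ difference, whose part was not tested, was lowest there too.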

How the results depend on the processing

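Of 17 member calls on stimulation in memory-derived cells, 9 passed in every setting that kept at least 2 arrays in each group. Of 13 calls on origin before stimulation, those of Eif2b1, Eif2b3 and Eif3a ended in such a setting. The share of all called genes that passed in each of these settings was not counted. The sign was kept in 374 of 374 fits of the memory-derived calls, 286 of 286 of the origin calls and, for Eif3c after stimulation, 22 of 22. These genes were picked as called, and several settings leave the fitted difference unchanged, so a kept sign adds no support. With the replicate block the counts were 13 higher and 3 lower on memory-derived stimulation, 12 and 2 on origin before stimulation and 1 and 0 after it. Of all genes, 30.5%, 21.4% and 3.43% passed there, beside 31.6%, 25.8% and 3.7% in the main fit. The block ended the call of Eif2b5 and, outside the members, those of 6 interactions and of Eef1e1 in the origin comparison (adjusted p = 0.0765). With the block the interaction passed for 0.176% of all genes, beside 2.71% in the main fit. A block by origin and experiment (correlation 0.122) gave 1 lower interaction, beside 2.43% of all genes. With experiments 1 and 2 only, 7 members rose on memory-derived stimulation, and the count of members higher in stimulated naive-derived than in stimulated memory-derived cells was 0. Of all genes, 8.29% and 0.858% were higher there, beside 14.3% and 1.69% in the main fit. The count of members higher after stimulation was also 0 with control scaling (0.926% of all genes higher), with the mean of all probe sets (1.67%) and without probe sets ending in x or s (1.71%). The stricter filter gave 17 higher members in origin before stimulation (19.4% of all genes it left were higher), and 1 higher and 3 lower interactions (11.6% of all genes passed), as did a trended robust variance (7.57%). Array weights gave 4 lower members in that origin comparison (18.5% of all genes), and 1 higher and 6 lower interactions (10.0% passed). Leaving out 1 array at a time, in fits that kept at least 2 arrays in each group, gave the following ranges. On memory-derived stimulation there were 11 to 15 rises and 2 to 3 falls (23.2% to 32.0% of all genes passed). Origin before stimulation gave 11 to 14 higher and 2 to 3 lower members (20.9% to 28.1% of all genes passed). After stimulation 0 to 1 members were higher (0.98% to 2.13% of all genes), and 0 to 8 interactions were lower (0.0541% to 4.71%). Without either naive-derived unstimulated array that group holds 1 array, so a count of calls cannot be read there. The cause of these shifts was not tested, beyond the loss of arrays. A group of 2 arrays limits every comparison with naive-derived unstimulated cells, and values near the floor of the normalized scale understate change.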
